A study of Homo sapiens with 12 samples.

Results

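The acetylation of 8 genes of the hypoxia and glycolysis programme, HIF1A, VEGFA, NDRG1, ADM, CA9, SLC2A1, LDHA and BNIP3, was examined around their transcription start sites in MDA-MB-231 cells, a basal-like breast cancer line with mesenchymal features. Members were peaks of acetylated histone H3 lysine 27 (H3K27ac), found at promoters and enhancers in use, that lay within 5 kb of a start site given to the nearest kb in hg19. These were 70 of the 667017 peaks in 9 deposited lists, 63 of them over a start site (within 500 bp of it) and 7 beside one. Control cells carried the control lentivirus labelled EV-control, CDK19KD cells shRNA against CDK19 and CDK8KD cells shRNA against CDK8, the alternative kinases of the Mediator kinase module. Each group had 3 libraries, and every culture was infected and grown for 96 h before native ChIP. The labels name no low-oxygen treatment and come from 1 cell line, and they do not say whether replicates were separate infections, so the spread between libraries may be technical. CDK8 and CDK19 levels were not analysed here, so the knockdowns were not checked.

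HIF-1 is a transcription factor whose HIF1A subunit is destroyed when oxygen is plentiful and accumulates when it is scarce. With its partner ARNT it binds the core words ACGTG or GCGTG near genes for glucose uptake (SLC2A1), glycolysis (LDHA), blood vessel growth (VEGFA, ADM), acid handling (CA9) and mitophagy (BNIP3). MDA-MB-231 cells are known for high glycolysis, and CDK8 has been described as a coactivator of HIF-1 target genes.

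The RefSeq promoter table (GRCh38.p14) held 6 of the 8 genes. In the 250 bases before the start, ACGTG or GCGTG on either strand occurred at the first listed start site of HIF1A, ADM, CA9, LDHA and BNIP3 and not of SLC2A1, against 43.2% of 35116 promoters of all genes in the same window. The second listed start site of HIF1A had neither word, and that of LDHA had 1 GCGTG. GC content in the first-site windows ran from 60.4% (CA9) to 81.6% (BNIP3), and the 43.2% was not matched for it. ACGTG alone occurred in 18.5% of all promoters, and CACGTG, which contains it on both strands, in 6.35%. The upstream sequences of 3 genes are shown: LDHA, the gene called in the start windows below, BNIP3 and CA9. The BNIP3 start peak had the lowest median rank by −log10 p of the 7, and CA9 had no peak over its start in any library. Capitals mark every ACGTG or GCGTG, read on either strand. The spans are chr11:18394313-18394562 (plus strand) for LDHA, chr10:131981924-131982173 (minus strand) for BNIP3 and chr9:35673678-35673927 (plus strand) for CA9.
LDHA: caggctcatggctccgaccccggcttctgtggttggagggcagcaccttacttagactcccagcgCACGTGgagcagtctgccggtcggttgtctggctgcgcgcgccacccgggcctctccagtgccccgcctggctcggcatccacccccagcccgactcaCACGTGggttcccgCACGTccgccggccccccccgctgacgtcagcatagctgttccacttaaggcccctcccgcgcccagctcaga
BNIP3: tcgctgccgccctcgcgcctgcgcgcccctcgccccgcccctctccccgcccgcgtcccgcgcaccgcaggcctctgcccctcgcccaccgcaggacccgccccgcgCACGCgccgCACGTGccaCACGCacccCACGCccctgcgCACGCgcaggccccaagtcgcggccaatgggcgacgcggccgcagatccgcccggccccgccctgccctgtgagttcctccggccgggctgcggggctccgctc
CA9: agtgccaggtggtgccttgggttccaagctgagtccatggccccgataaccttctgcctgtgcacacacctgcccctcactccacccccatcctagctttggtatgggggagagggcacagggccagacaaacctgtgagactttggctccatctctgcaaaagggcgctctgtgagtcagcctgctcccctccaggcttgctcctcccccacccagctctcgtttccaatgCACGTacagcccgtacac
LDHA and BNIP3 carried CACGTG, which counts as 1 match on each strand, so that the LDHA window held 5 strand-specific matches of ACGTG and the BNIP3 window 2 of ACGTG and 4 of GCGTG. CA9 held a single ACGTG, on the opposite strand, 18 to 14 bases before the start. A match of letters is a description and shows no binding.

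The 9 lists held 63530 to 88326 peaks each, and on chromosomes 1 to 22 and X they covered 262 to 318 Mb. CDK19KD lists covered 262 to 271 Mb, which was less than CDK8KD lists at 292 to 318 Mb, while Control lists covered 263, 313 and 316 Mb. These totals enter the results below only where scaling is named. Read depth is unknown, so no counting error can be given. In every list the closest peaks were 1001 bp apart, so shorter gaps are not seen in these files. A peak's extent is not its acetylation level, and in bulk chromatin fewer acetylated cells cannot be told apart from less signal per cell. The start sites of the mesenchymal markers VIM, CAV1, CD44 and AXL had a peak within 5 kb in 9 of 9 libraries, and that of the luminal marker ESR1 in 0. Markers of other types were not all silent: the epithelial marker EPCAM and the leukocyte marker PTPRC had a peak in all 9 libraries, FOXA1 in 3 and GATA3 in 5, while ALB and MYOD1 had none. The epithelial gene CDH1 had a peak in 6 libraries, all 6 of them knockdowns, covering 18.4% to 33.8% of its 10 kb window there and 0 in Control. Over 10 kb windows tiled along the genome, all CDK8KD libraries lay above all Control libraries in 12.8%, and all CDK19KD libraries in 6.52%. When peaks under a −log10 q of 5 were dropped, CDH1 kept a peak in 1 library. In the fits described below, CDH1 was higher in CDK8KD than in Control over its 10 kb window (by 29.6 percentage points, limma adjusted p = 0.0419) and over 100 kb (by 14.5 points, adjusted p = 0.0353). Of all 10 kb windows 0.635% were called higher in CDK8KD, and of all 100 kb windows 0.847% were called in either direction. CDK19KD minus Control was 25.0 points over 10 kb, which did not pass (limma adjusted p = 0.144). The part of these markers in the results below was not tested.

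Acetylation at the start sites was measured as the share of the 10 kb window centred on the start that peaks covered. Of the 8 genes, 7 had a peak over the start in all 9 libraries, and CA9 was the exception. NDRG1, a stress-induced gene of differentiation, and SLC2A1, the glucose transporter GLUT1, were covered over 100% of the window in every library, which happened in 1.22% of the 78056 tiled windows of the genome that were tested. Tiled windows are not centred on start sites, so this share is no background for start windows. ANGPTL4, of the 30 further pathway genes read below, was also at 100% in every library. Windows at 100% can only differ beyond their edges.

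**Figure D1:**
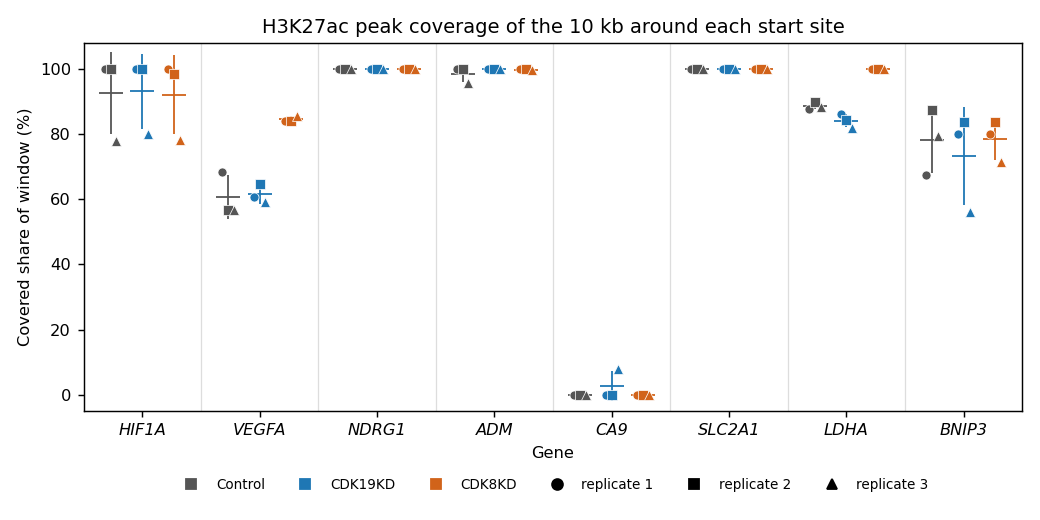
Covered share of the 10 kb window at each of the 8 start sites (y axis, percent) by gene (x axis). Points are the 3 libraries of each group, horizontal ticks the mean and vertical lines 1 SD (n = 3), which may pass 100% because they are symmetric. VEGFA and LDHA had all 3 CDK8KD libraries above the 6 others, while CA9 stayed near 0.

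ADM, the gene for the vasodilator adrenomedullin, had shares of 100%, 100% and 95.8% in Control replicates 1, 2 and 3, of 100% in each CDK19KD library and of 100%, 100% and 99.9% in CDK8KD. HIF1A had 100%, 100% and 78.1% in Control, 100%, 100% and 80.0% in CDK19KD and 100%, 98.5% and 78.2% in CDK8KD. At HIF1A the low value therefore belonged to replicate 3 of every group and not to a group. The gap lay upstream, where these 3 libraries covered 56.2%, 60.0% and 56.4% of the 5 kb before the start and all 9 covered 100% of the 5 kb after it.

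BNIP3, a mitochondrial protein that triggers mitophagy, had shares of 67.7%, 87.4% and 79.6% in Control, 80.0%, 83.8% and 56.2% in CDK19KD and 80.1%, 83.7% and 71.6% in CDK8KD, so the groups overlapped. Its differences were −4.87 points for CDK19KD minus Control (95% interval −23.8 to 14.1), 0.233 for CDK8KD minus Control (−18.7 to 19.2) and −5.10 for CDK19KD minus CDK8KD (−24.1 to 13.9). In the fit described for LDHA no comparison passed for BNIP3, HIF1A or ADM, whose lowest adjusted p was 0.631. CA9, carbonic anhydrase IX of the cell surface, had 0 in 8 libraries and 7.79% in CDK19KD replicate 3. That single peak, with a deposited fold of 2.06, lay upstream of the start and exceeded 4.6% of the peaks of its list by deposited −log10 p. With a mean share under the minimum of 5%, CA9 was not tested. Ordered by mean share in Control, the genes ran from NDRG1 and SLC2A1 (100%) through ADM (98.6% ± 2.42, SD, n = 3), HIF1A (92.7% ± 12.7), LDHA (88.7% ± 1.04) and BNIP3 (78.2% ± 9.95) to VEGFA (60.7% ± 6.69) and CA9 (0). Adjacent genes in this order had overlapping Control ranges except LDHA and BNIP3, whose closest libraries had 87.9% and 87.4%, and VEGFA and CA9.

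The peaks over the start sites also differed in size and strength. SLC2A1 lay in a peak of 44.9 to 53.1 kb (median 52.8), wider than 99.8% or more of each list and reaching 15.1 to 15.6 kb upstream in all 9 libraries. The HIF1A peak measured 16.7 to 77.7 kb, since it ran 61.99 to 70.9 kb past the start in 5 libraries (Control replicates 2 and 3, CDK19KD replicates 1 and 3 and CDK8KD replicate 3) and 11.8 to 11.9 kb in the other 4. In those 4 a second peak followed after a listed gap of 1.10 to 1.19 kb and ended 61.5 to 72.9 kb past the start. Peaks covered 97.4% to 100% of the stretch 5 to 50 kb downstream in all 9 libraries. Both forms, with and without the gap, occurred in every group. The start peaks of ADM (12.04 to 27.2 kb), NDRG1 (14.7 to 27.9 kb), LDHA (13.9 to 33.8 kb), VEGFA (7.13 to 19.3 kb) and BNIP3 (5.62 to 19.04 kb) were narrower than that of SLC2A1, and their ranges overlapped that of HIF1A. By the caller's −log10 p, which is the authors' value, NDRG1 stood at the 93.3rd to 97.4th percentile of each list and ADM at the 90.5th to 96.6th, while BNIP3 had the lowest median, with 71.2 to 78.7. When peaks under a −log10 q of 5 were dropped, BNIP3 kept a peak within 5 kb in 7 libraries, CA9 in 0 and the other 6 genes in all 9.

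LDHA, the lactate dehydrogenase subunit that turns pyruvate into lactate, had a wider listed peak over its start in every CDK8KD library than in the others. Its start window was covered over 87.9%, 89.9% and 88.3% in Control, 86.2%, 84.4% and 82.1% in CDK19KD and 100% in each CDK8KD library. All CDK8KD libraries lay above all others, and all CDK19KD libraries below all Control libraries. In 12.8% of tiled windows all CDK8KD libraries lay above all Control libraries, in 15.4% above all CDK19KD libraries, and in 7.24% all CDK19KD libraries lay below all Control libraries. The share rose by 11.3 percentage points from Control to CDK8KD (SE 1.35, 95% interval 8.16 to 14.4, limma adjusted p = 0.0267 over 78101 windows). It was 15.8 points lower in CDK19KD than in CDK8KD (SE 1.35, interval −18.9 to −12.7, adjusted p = 0.00990). CDK19KD minus Control was −4.50 points (SE 1.35, interval −7.62 to −1.37), which did not pass (adjusted p = 0.350). The comparisons with CDK8KD share those libraries. The share at 100% cannot vary upward, so the spread in CDK8KD is not seen. Of the 7 genes tested, LDHA alone was called in either comparison. By absolute size, however, its 2 differences ranked only 27374th (CDK8KD against Control) and 15435th (between the knockdowns) of 78101 windows. Those of the uncalled VEGFA ranked 7366th and 6874th. NDRG1 and SLC2A1 are among the 7 but, at 100% in every library, could not be called. Of all windows, 0.722% were called between CDK8KD and Control (0.635% higher in CDK8KD), and 1.01% between CDK19KD and CDK8KD (0.781% lower in CDK19KD). Between CDK8KD and Control these were 496 windows higher and 68 lower, and without Control replicate 1 they were 735 higher and 1328 lower.

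The LDHA groups differed in a gap upstream of the start. In Control the peak over the start began 3.79, 3.99 and 3.57 kb upstream, and a separate peak ended 1.43, 2.75 and 1.17 kb farther away. In CDK19KD it began 3.62, 3.30 and 3.21 kb upstream, after gaps of 3.31, 1.56 and 2.93 kb, the next peak being only 0.983 kb wide in replicate 2. In CDK8KD no gap was listed and a single peak began 14.6, 17.1 and 17.9 kb upstream. The width of the start peak was 19.1 ± 0.197 kb in Control, 16.8 ± 2.48 kb in CDK19KD and 32.2 ± 1.86 kb in CDK8KD (SD, n = 3). Its downstream end lay 14.9 to 15.96 kb after the start in every library but CDK19KD replicate 1, where it lay at 10.3 kb. In that library another peak followed after a gap of 1.05 kb and ended 15.5 kb after the start. The sequence between the peaks lies within the LDHA region chr11:18397482-18431958 of hg19, whose next protein-coding gene on the upstream side is GTF2H1 by RefSeq order. Over that whole region, the covered length was 29.4 ± 3.38 kb in Control, 26.2 ± 2.14 kb in CDK19KD and 32.6 ± 1.25 kb in CDK8KD. Control and CDK8KD overlapped there, with 32.8 kb in Control replicate 3 and 31.3 kb in CDK8KD replicate 1. No comparison passed (limma adjusted p = 0.650, 0.574 and 0.228 for CDK19KD against Control, CDK8KD against Control and CDK19KD against CDK8KD).

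**Figure D2:**
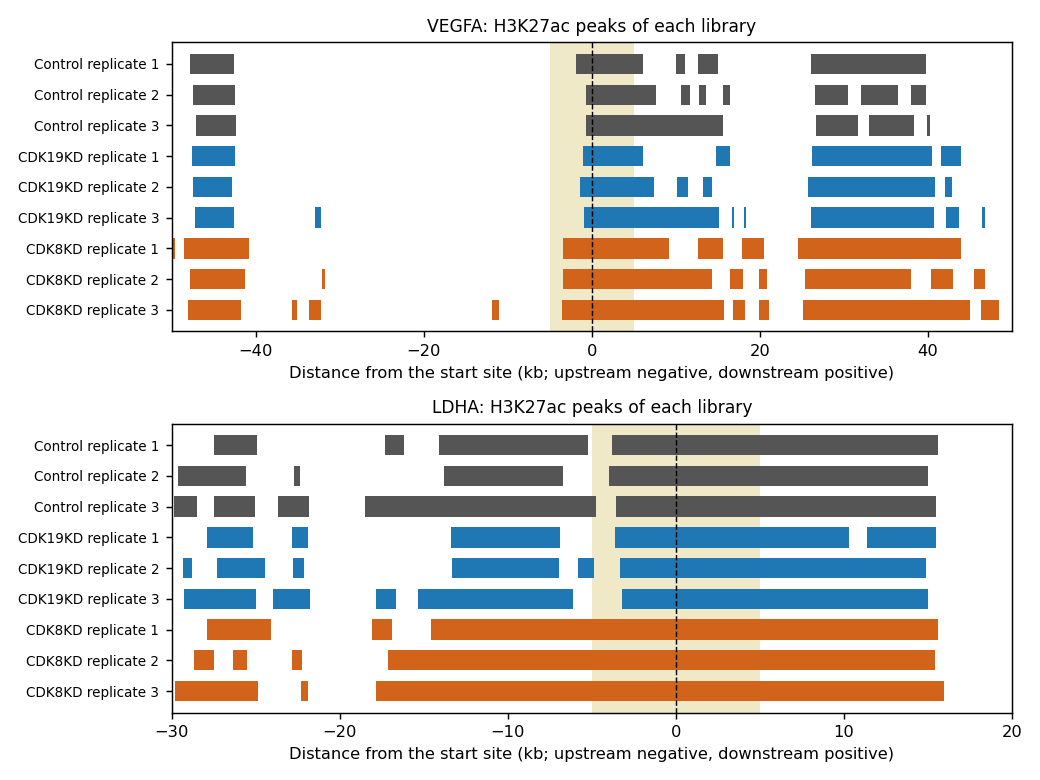
Peaks of the 9 libraries at VEGFA (upper panel, 50 kb on each side) and LDHA (lower panel, 30 kb upstream to 20 kb downstream) by distance from the start site in kb along the gene's direction. Bars are single peaks, the dashed line is the start and the shaded band the 10 kb window. At LDHA the gap before the start peak is absent in the 3 CDK8KD rows, and at VEGFA the start peak begins 3.41 to 3.57 kb upstream in CDK8KD.

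The LDHA call for CDK8KD against Control depended on single libraries. Over 16 alternatives its adjusted p ran from 0.00445 to 1.0 and passed in 8, and that between the knockdowns from 0.000584 to 1.0 and passed in 13. Among these alternatives, joining peaks within 1000 bp only repeated the main fit, since no list has such gaps. Leaving out 1 library gave an adjusted p of 0.0276 to 0.0897 for CDK8KD against Control, and it passed in 3 of 9 such fits, not without Control replicate 2 or 3, CDK19KD replicate 2 or any CDK8KD replicate. The call between the knockdowns passed in 8 of 9, not without CDK8KD replicate 3 (0.0535). Scaling by total covered length ended both calls, with differences of 8.96 points (adjusted p = 0.573) and −4.71 points (0.813). By construction this divides windows covered at 100% by unequal totals.

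VEGFA, the main angiogenic growth factor, showed the largest start window differences of the 8 genes in the comparisons with CDK8KD, just short of the threshold. The share was 68.5%, 56.9% and 56.9% in Control, 60.9%, 64.6% and 59.1% in CDK19KD and 84.3%, 84.1% and 85.8% in CDK8KD. No CDK8KD library overlapped another group, while Control and CDK19KD overlapped. CDK8KD minus Control was 24.0 points (SE 4.09, interval 14.5 to 33.5, limma adjusted p = 0.0543) and CDK19KD minus CDK8KD −23.2 points (SE 4.09, interval −32.7 to −13.7, adjusted p = 0.0517). CDK19KD minus Control was 0.783 points (SE 4.09, interval −8.72 to 10.3, adjusted p = 0.974). Over 16 alternatives the adjusted p ran from 0.0234 to 0.282 for CDK8KD against Control, passing in 2, and from 0.0355 to 0.443 between the knockdowns, passing in 3. Without Control replicate 1 both passed (0.0234 and 0.0493), while the windows called over the genome went from 564 to 2063 and from 786 to 441. The same lack of overlap with CDK8KD was found in 12.8% (Control) and 15.4% (CDK19KD) of tiled windows.

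The difference at VEGFA lay upstream. The peak over the start began 1.85, 0.689 and 0.684 kb before it in Control, 1.09, 1.46 and 0.907 kb in CDK19KD and 3.42, 3.41 and 3.57 kb in CDK8KD. The 5 kb before the start were covered over 36.9%, 13.8% and 13.7% in Control and 68.5%, 68.2% and 71.5% in CDK8KD, and the 5 kb after it over 100% in all 9 libraries. The start peak and its continuation lay in the region chr6:43734426-43754431 of hg19. Covered length in this region was 12.9 ± 2.92 kb in Control, 12.015 ± 3.68 kb in CDK19KD and 17.5 ± 1.88 kb in CDK8KD (SD, n = 3), with no comparison past the threshold (adjusted p = 0.887, 0.396 and 0.271, in the order given for LDHA). With the replicate number as a block the last passed (limma adjusted p = 0.0466, the lowest of 14 alternatives, which ran up to 0.542). The regions called in that comparison went from 213 to 1620 of 34047 with the block.

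Farther from VEGFA, a peak about 45 kb upstream measured 5.20, 4.98 and 4.65 kb in Control, 5.07, 4.66 and 4.66 kb in CDK19KD and 7.76, 6.56 and 6.38 kb in CDK8KD. Between 5 and 50 kb downstream, the covered share was 40.5%, 34.6% and 47.5% in Control, 42.8%, 46.3% and 60.3% in CDK19KD and 64.6%, 63.0% and 78.5% in CDK8KD. CDK8KD lay above both other groups in these stretches, which were chosen after the values had been seen and were not tested singly.

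Over the 100 kb centred on the VEGFA start, peaks covered 30.3%, 26.3% and 31.7% in Control, 30.4%, 31.9% and 38.4% in CDK19KD and 45.6%, 43.7% and 53.0% in CDK8KD. All CDK8KD libraries lay above the 6 others, against 15.3% of tiled windows in which they lay above Control. CDK8KD minus Control was 18.0 points (SE 3.85, interval 9.37 to 26.7, limma adjusted p = 0.0624 over 13221 windows) and CDK19KD minus CDK8KD −13.9 points (SE 3.85, interval −22.5 to −5.20, adjusted p = 0.128). With the replicate number as a block both passed (adjusted p = 0.0145 and 0.0298), and without Control replicate 1 the first did (0.0387). Over 15 alternatives they ran from 0.0145 to 0.344 and from 0.0298 to 0.596. The windows called between CDK8KD and Control grew as well, from 112 to 970 with the block and to 1252 without Control replicate 1. Those called between the knockdowns went from 61 to 843 with the block.

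**Figure D3:**
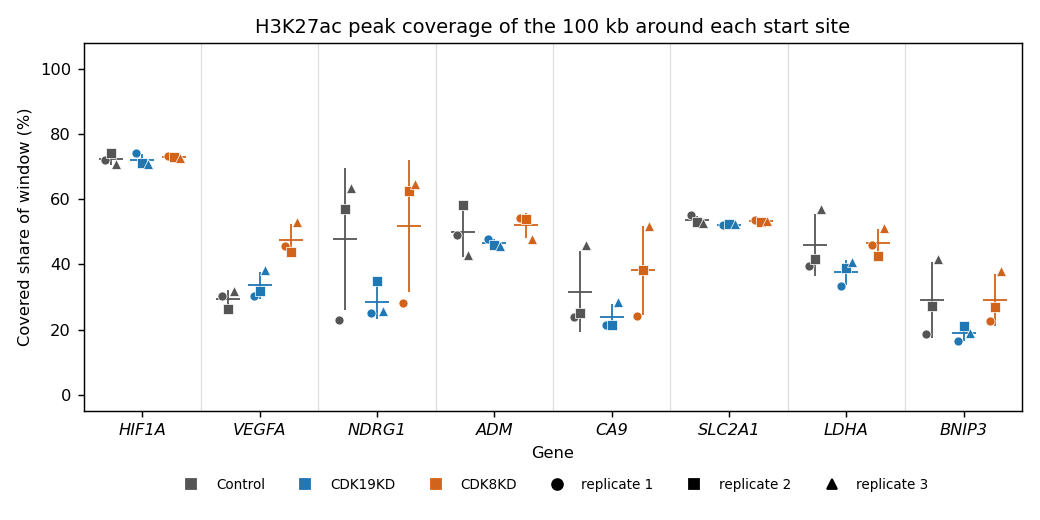
Covered share of the 100 kb window centred on each of the 8 start sites (y axis, percent) by gene (x axis), with points for the 3 libraries of each group, ticks for the mean and lines for 1 SD (n = 3). VEGFA had the 3 CDK8KD libraries between 43.7% and 53.0%, above the others, while NDRG1 ranged from 22.8% to 64.6% within and between groups.

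Around the other 7 genes no comparison of the 100 kb shares passed the test. Around NDRG1 the 100 kb were covered over 22.8%, 57.0% and 63.4% in Control, 25.2%, 34.8% and 25.6% in CDK19KD and 28.3%, 62.6% and 64.6% in CDK8KD. Replicates 2 and 3 of Control and CDK8KD were high, and the other 5 libraries lay between 22.8% and 34.8%. The values differed most on the downstream side, where between 5 and 50 kb downstream of the start coverage was 4.10%, 62.6% and 94.6% in Control, 2.32%, 18.3% and 6.60% in CDK19KD and 2.94%, 83.5% and 96.3% in CDK8KD. Deposited fold values there were lower than at the start, 2.43 and 2.51 for the 2 downstream peaks of Control replicate 3, where the start peak had 5.29. CDK19KD minus Control was −19.2 points (SE 11.9, interval −46.0 to 7.57) and CDK19KD minus CDK8KD −23.3 points (SE 11.9, interval −50.1 to 3.48), and neither passed (adjusted p = 0.533 and 0.415). When peaks under a −log10 q of 5 were dropped, the first became 2.29 points.

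**Figure D4:**
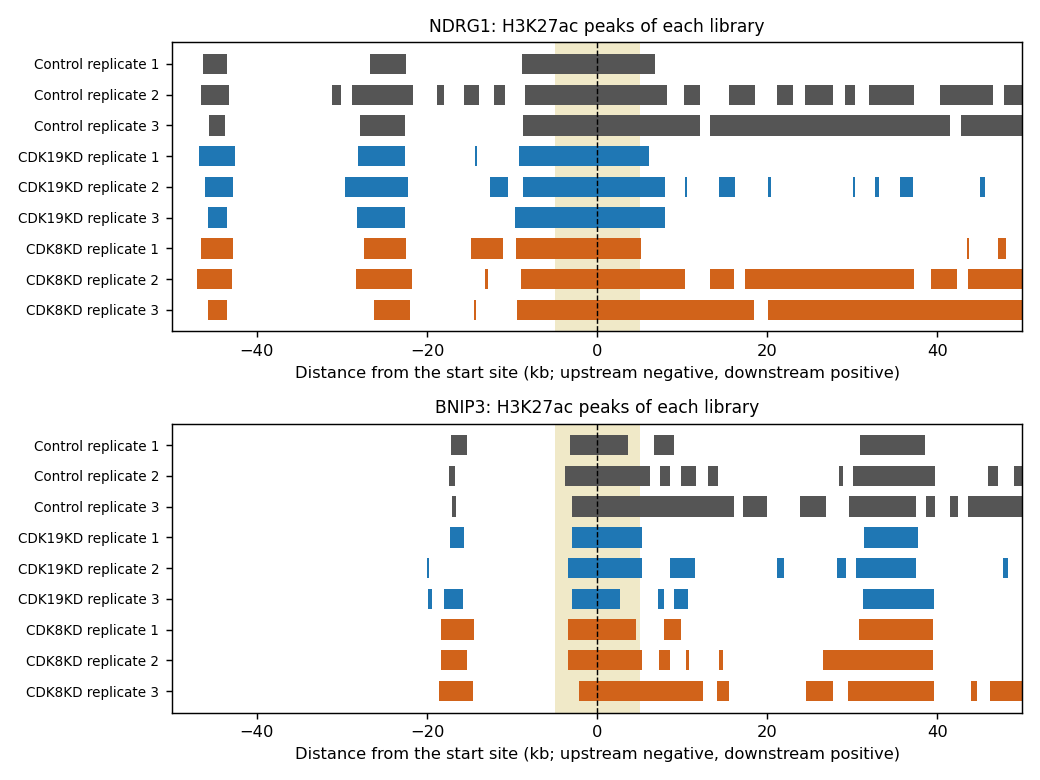
Peaks of the 9 libraries at NDRG1 (upper panel) and BNIP3 (lower panel), 50 kb on each side of the start, by distance in kb along the gene's direction. Bars are single peaks, the dashed line is the start and the shaded band the 10 kb window. Long peaks downstream of NDRG1 fill Control replicate 3 and CDK8KD replicates 2 and 3 and are nearly absent from the replicate 1 libraries.

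Around BNIP3 the shares were 18.5%, 27.1% and 41.7% in Control, 16.4%, 21.2% and 18.95% in CDK19KD and 22.6%, 26.9% and 38.0% in CDK8KD. All CDK19KD libraries lay below all CDK8KD libraries here and around VEGFA, LDHA and SLC2A1, as in 20.7% of tiled windows, and the BNIP3 difference was −10.3 points (SE 5.87, interval −23.5 to 2.90, adjusted p = 0.469). LDHA had 39.5%, 41.6% and 57.1% in Control, 33.3%, 38.8% and 40.8% in CDK19KD and 45.9%, 42.5% and 51.3% in CDK8KD, and no comparison passed (lowest adjusted p = 0.480). CA9, without a peak over its start, had 21.4% to 51.9% of its 100 kb covered. Its peaks lay from 6.82 kb upstream outward and from 11.4 kb downstream outward (apart from the weak one in CDK19KD replicate 3). Its next genes by RefSeq order are ARHGEF39 and TPM2. SLC2A1 (52.1% to 55.2%) and HIF1A (70.8% to 74.4%) had the narrowest ranges of the 8, and at SLC2A1 the CDK19KD libraries (52.1% to 52.4%) lay below Control (52.8% to 55.2%), as in 9.36% of tiled windows. ADM had 42.9% to 58.2% in Control, 45.6% to 47.9% in CDK19KD and 47.7% to 54.4% in CDK8KD.

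Across the set, 7 of 8 neighbourhoods had a lower mean in CDK19KD than in Control and 8 of 8 a lower mean than in CDK8KD. These comparisons share the CDK19KD libraries. Among all 13221 windows the directions held in 66.9% and 70.3%. The median difference of the 8 genes was −5.68 points for CDK19KD against Control, 1.34 for CDK8KD against Control and −9.62 for CDK19KD against CDK8KD, and that of all windows −1.53, 0.208 and −1.75. With scaling by total covered length the counts of lower means became 4 of 8 and 5 of 8, against 48.8% and 47.8% of all windows, and the medians became −1.31, 0.448 and −5.52 points for the 8 genes and 0.11, −0.0838 and 0.173 for all windows. The median for CDK8KD against Control became −0.345 without CDK8KD replicate 3 and 0.503 without Control replicate 1.

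No member was called in the 100 kb windows, where 0%, 0.847% and 0.461% of all windows were, for CDK19KD against Control, CDK8KD against Control and CDK19KD against CDK8KD. An unadjusted p under 0.05 was reached there by 0, 1 and 1 of 8 members and by 10.9%, 19.1% and 15.2% of all windows. In the start windows NDRG1 and SLC2A1 were at 100% in every library and could not be called. There CDK19KD against Control had 0 of 7 called, and 0.0781% of all windows were called. In that comparison 1 of 7 had an unadjusted p under 0.05, against 9.92% of all windows. For the regions over the starts 0 of 7 were called in each comparison, against 0%, 0.69% and 0.626% of 34047 regions. There 0, 0 and 2 of 7 had an unadjusted p under 0.05, against 10.6%, 15.2% and 15.6% of all regions.

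The rest of the pathway was read from 30 further genes. Of these, 29 had a peak within 5 kb of the start in all 9 libraries: 11 of 11 genes of glycolysis and glucose uptake (such as HK2, GAPDH, PGK1, ENO1 and PKM), 8 of 8 of oxygen sensing (such as EPAS1, ARNT, VHL, EGLN1 and EGLN3) and 10 of 11 other targets. The exception, CXCR4, a chemokine receptor, had one in 5. Without peaks under a −log10 q of 5, the fewest libraries with a peak were 0 for CXCR4, 5 for EGLN3 and 6 for TPI1. The share of all start sites with a peak in all 9 libraries was not computed, for these genes or for the 8 members. The markers EPCAM and PTPRC also had a peak in all 9. Over the 30 genes, the median of the mean start window share was 72.1% for Control, 66.6% for CDK19KD and 74.9% for CDK8KD. Gene by gene, the median difference over the 29 tested was −0.453 points (CDK19KD minus Control), 2.20 (CDK8KD minus Control) and −3.5 (CDK19KD minus CDK8KD). The medians over all windows were −2.26, 0.883 and −3.22. None of the 29 genes tested was called in any comparison at the start window, with 1, 0 and 3 at an unadjusted p under 0.05 for CDK19KD against Control, CDK8KD against Control and CDK19KD against CDK8KD. Over all windows 9.92%, 14.7% and 14.6% reached it. For regions over the start 0 were called, with 3, 5 and 7 of 29 at an unadjusted p under 0.05, against 10.6%, 15.2% and 15.6% of all regions. For the 100 kb windows 0 were called, with 4, 6 and 5 of 29, against 10.9%, 19.1% and 15.2% of all windows.

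The pathway gene with the largest start window difference in each comparison was PDK1, EPAS1 and GPI. PDK1, a kinase of pyruvate dehydrogenase, had 87.9%, 100% and 100% in Control and 77.7%, 87.0% and 72.8% in CDK19KD, a difference of −16.8 points (SE 5.24, limma adjusted p = 0.371). EPAS1, the HIF-2 alpha subunit, had 63.9%, 59.0% and 53.2% in Control and 86.8%, 61.0% and 74.2% in CDK8KD, a difference of 15.3 points (SE 8.01, adjusted p = 0.425). GPI, the second enzyme of glycolysis, had 55.1%, 57.0% and 69.5% in CDK19KD and 71.5%, 88.5% and 100% in CDK8KD, a difference of −26.2 points (SE 9.78, adjusted p = 0.274). The PDK1 and GPI groups did not overlap in these comparisons, and the EPAS1 groups did. All CDK19KD libraries lay below all Control libraries in 7.24% of tiled windows, and below all CDK8KD libraries in 15.4%.

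As a description over 9 libraries that all 38 genes share, the profile of 100 kb shares most like that of VEGFA was BHLHE40 (Pearson r = 0.912), and LDHA and BNIP3 were most like each other (r = 0.925). NDRG1 was most like BNIP3 (r = 0.871) and CA9 most like PFKFB4 (r = 0.977).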

How the data were processed

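H3K27ac ChIP-seq was measured in 9 libraries (3 per group, by sample titles), and 3 Input samples were not analysed here. Peaks were called with MACS2 on hg19 per the submitters' processing notes, 1 broad-peak list per library, without a header line, while version, settings, aligner, control and depth are not given in the sources used here. The authors deposited a fold enrichment (ratio) and −log10 p and q per peak, used within each list only. The deposited score is the −log10 q on another scale and was not used.

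Computed here, with limma 3.58.1 in R 4.3.3 and Python 3.11.15 and on chromosomes 1 to 22 and X, were the share of 10 kb and 100 kb windows covered by peaks, and the log2 covered length of regions merged from the 9 lists and held by all. Gene windows were added to the tiled windows, and those with a mean share of at least 5% were tested. The 9 libraries were fitted together (lmFit, eBayes with a trend), with Benjamini-Hochberg adjustment over each whole table and comparison and a threshold of 0.05. Without depth, precision rests on the spread between libraries. Deviations of same-numbered libraries from their group means correlated at 0.138 to 0.611 in 9 of 9 pairs. The main fits held the 3 groups only, so their intervals and p-values do not use this pairing. The replicate number from the titles entered as a block in 1 alternative. Other alternatives dropped peaks under a −log10 q of 5, kept the 20000 strongest peaks of each list, or used peaks joined within 1000 bp, scaling by total covered length, no minimum share, a 5 kb window and leaving out each library.

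All 8 genes are named. Of 30 further pathway genes, those called and the 1 with the largest start window difference per comparison were named by rule. Others are named as examples or for comparison. Members and lists were chosen with earlier results of these data known. Start sites of the 8 genes were given to the nearest kb, and those of pathway genes and markers were written to the nearest kb from general knowledge of hg19, as were the strands of VEGFA and NDRG1, without an hg19 annotation. The result of 1 marker is not reported here. Promoter sequences and gene order are from RefSeq (GRCh38.p14), used for letters and names only.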

Additional observations from a re-analysis of the deposited data

How the results depend on the processing

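The number of the 8 genes called was 1 (LDHA) in the start windows for CDK8KD against Control and for CDK19KD against CDK8KD, and 0 in the 7 other combinations of measure and comparison. Over the alternatives, 115 of these counts stayed and 20 moved. With the 20000 strongest peaks both counts of 1 became 2, as VEGFA passed too. With scaling by total covered length and with a 5 kb window, which LDHA fills in every library, both became 0. With no minimum share the second became 2. Leaving out 1 library gave 0 to 2 for both. With the replicate block, 1 gene (VEGFA) was called in the regions over the start for CDK19KD against CDK8KD. In the 100 kb windows 1 was called for CDK8KD against Control and for CDK19KD against CDK8KD. The block changed no other call of the 8 genes. Over the genome it moved the regions called between the knockdowns from 213 to 1620 of 34047. For the 2 comparisons of 100 kb windows the calls went from 112 to 970 and from 61 to 843 of 13221. In the 100 kb windows for CDK8KD against Control, leaving out 1 library gave 0 to 1. Joining peaks within 1000 bp changed nothing, since no list has such gaps.

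No called difference changed sign. Among uncalled ones the sign changed in 49 values, 9 of them by more than the standard error. With scaling these were LDHA (4.25) and BNIP3 (3.43) for CDK19KD against Control, ADM (−0.885) for CDK8KD against Control and BNIP3 (4.09) for CDK19KD against CDK8KD, in points of the start window. Leaving out 1 library gave BNIP3 −10.1 to 3.71 for CDK19KD against Control and −10.3 to 3.47 against CDK8KD, with the positive values without CDK19KD replicate 3, and ADM −0.04 (without Control replicate 3) to 2.06 for CDK8KD against Control. For the 100 kb of NDRG1, CDK19KD against Control became 2.29 without peaks under a −log10 q of 5, and CDK8KD against Control ran from −8.36 (without Control replicate 1) to 15.9. Causes were not tested unless stated. Over the whole genome, 61, 564 and 786 start windows were called for CDK19KD against Control, CDK8KD against Control and CDK19KD against CDK8KD. These counts became 2, 342 and 705 with the block, 1, 152 and 338 with scaling, 389, 504 and 846 with the 20000 strongest peaks, and 7 to 1205, 15 to 2063 and 42 to 789 without 1 library. Scaling changed the split between the knockdowns from 176 higher and 610 lower to 129 and 209, and moved the median difference of all windows for CDK19KD against Control from −2.26 to 1.06 points. Unknown depth limits how narrow gaps such as that at LDHA can be read.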
